A study of Mus musculus with 15 samples.

Results

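The Notch pathway was followed through 10 genes, chosen by name, in the podocyte-fraction mRNA-Seq of young and aged mice. These are the 4 receptors Notch1, Notch2, Notch3 and Notch4, the 4 ligands Jag1, Jag2, Dll1 and Dll4, and the 2 targets Hes1 and Hey1. They are 10 of the 46078 genes in the deposited count table, and all 10 had enough counts to be tested in each comparison. All mice were male C57BL/6J, and each library came from the kidney cortex of an individual mouse, digested and sorted on magnetic beads with an antibody to nephrin, a protein of the podocyte slit diaphragm. The young mice were 4 months old and received no injection. The aged mice were 21 months old and received weekly intraperitoneal injections at 12 mg/kg for 8 weeks, either of the anti-PD-1 antibody RMP1-14 (aPD1ab) or of the isotype control 2A3 (IgG2a). The titles of the aPD1ab samples give 47 days. Aged mice without injection were not analysed here, so age and injection cannot be told apart in the comparisons with young mice. Counts could be tied to a group for 5 young, 4 aged IgG2a and 4 aged aPD1ab libraries, by the numbers that stand beside the points of a plot in the study, since the sample titles do not hold the column numbers of the table.

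Notch receptors are transmembrane proteins that bind Jagged or Delta-like ligands on a neighboring cell. Binding exposes the receptor to ADAM proteases and then to γ-secretase, which frees the intracellular domain, and this domain joins RBPJ and Mastermind proteins in the nucleus to turn on genes of the HES and HEY families. In the kidney, Notch signaling acts in nephron segmentation and in the development of the glomerular tuft. In the adult, Notch3 is known from mural cells (mesangial cells, pericytes and smooth muscle), Notch4 and Dll4 from endothelium, and Notch activity in podocytes is known from glomerular injury.

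Total counts were 21962193 to 27685122 in young, 20500755 to 32717100 in aged IgG2a and 19912969 to 31493051 in aged aPD1ab libraries. The fraction held other cells besides podocytes. The podocyte gene Nphs1, which encodes nephrin, was at 43.2 to 81.3 counts per 1000000 counts (CPM, after TMM scaling) in young, at 4.15 to 19.4 CPM in aged IgG2a and at 7.61 to 42.7 CPM in aged aPD1ab libraries. Summed over 8 proximal tubule markers, the level was 4826 to 7627 CPM in young, 730.3 to 3450 CPM in aged IgG2a and 3353 to 10320 CPM in aged aPD1ab libraries. All 8 were called lower in aged IgG2a than in young mice (median log2 fold change -1.86), beside 8.38% of all genes. None was called in aged aPD1ab against young mice, beside 22.4% of all genes called in either direction. What part this shift had in the Notch gene differences was not tested. Replicate 1 of the aged IgG2a group stood apart. On the first principal component, which held 46.6% of the variance, it lay at -15.1, whereas the other 3 lay at 65.5 to 76.5 and the young libraries at -37.7 to -21.3. For the 10 genes, the log2 fold changes that rest on the aged IgG2a group are therefore given with and without it. Replicate 1 was picked from these same counts, so adjusted p values without it are a description and not an independent test. The aged aPD1ab libraries lay at 3.08, -60.5, 9.085 and -13.9 on this component, so that their replicate 2 lay beyond every young library. That library also had the lowest summed podocyte markers (264.6 CPM) and endothelial markers (352.9 CPM) of all libraries. Its proximal tubule sum (10320 CPM) was the highest. It was left out only among the fits that drop 1 library each. Mitochondrial transcripts took 23.1% to 30.4% of counts in young, 29.3% to 54.9% in aged IgG2a and 20.4% to 38.5% in aged aPD1ab libraries.

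In aged IgG2a mice compared with young mice, 3 of the 10 genes were lower and none was higher at an adjusted p under 0.05 (edgeR quasi-likelihood test, Benjamini-Hochberg over all genes). These were the receptors Notch3 and Notch4 and the ligand Dll1. Of all 15953 genes tested in this comparison, 8.38% were called lower and 9.05% higher, or 17.4% in either direction. The median log2 fold change of the 10 genes was -0.21, against 0.04 for all genes. Without aged IgG2a replicate 1, the same 3 genes were called lower and Notch2 was called higher, at a background of 23.5% lower and 22.1% higher (45.6% in either direction). Leaving out any other library of this comparison left 1 or 2 of the 10 genes called, and Notch3 was called each time. In those fits the share of all genes called in either direction also fell, to between 3.4% and 9.54%.

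In aged aPD1ab compared with aged IgG2a mice, none of the 10 genes and 0% of the 15530 genes tested were called by edgeR, although 4341 genes had an unadjusted p under 0.05. The median log2 fold change of the 10 genes was -0.36, against -0.01 for all genes. The outcome depended on the tool and on 1 library. DESeq2 and limma voom with sample quality weights each called Notch2, Jag1 and Jag2 lower, the edgeR fit of all 3 groups together called Notch2 and Jag2, and all of these called genes across the table. The share of all genes called in either direction was 15.3% by DESeq2, 39.8% by voom and 17.5% in the fit of all 3 groups. Called lower were 983 of 15530 genes by DESeq2, 2929 of 15530 by voom and 1002 of 16330 in the fit of all 3 groups. Without aged IgG2a replicate 1, edgeR called Notch2 and Jag2 lower, at a background of 13.2% lower and 17.1% higher (30.4% in either direction).

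In aged aPD1ab compared with young mice, 5 of the 10 genes were called lower and none higher, against 9.97% lower and 12.4% higher (22.4% in either direction) of all 15986 genes tested. These were Notch2, Notch3, Notch4, Jag1 and Jag2, that is 3 of 4 receptors and 2 of 4 ligands but neither target. The median log2 fold change was -0.62, against 0.02 for all genes. The 3 comparisons share their groups and are not independent of each other.

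**Figure D1:**
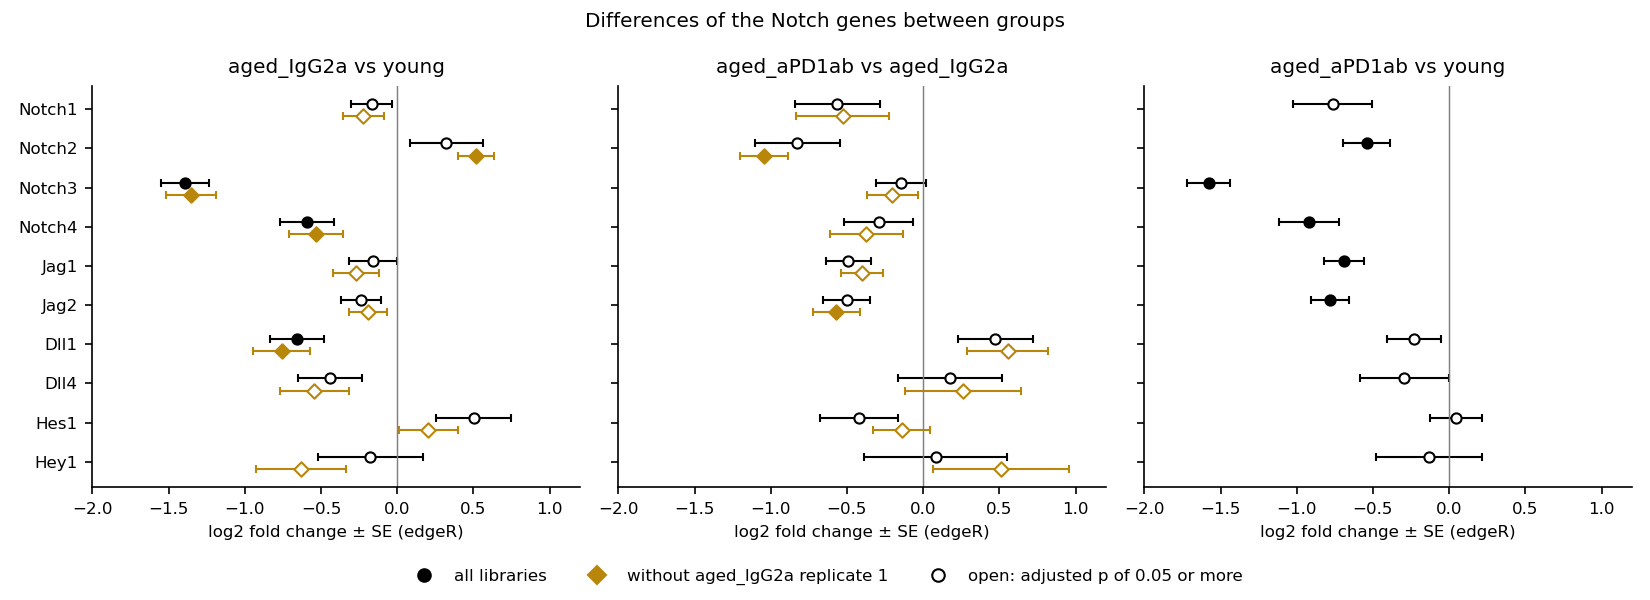
Log2 fold change (edgeR) with a standard error derived from its test statistic for each of the 10 Notch genes in the 3 comparisons. Black circles are for all libraries and brown diamonds for the fit without aged_IgG2a replicate 1. Filled symbols mark an adjusted p under 0.05. Notch3 lies farthest from 0 in both comparisons with young mice (-1.39 and -1.58), and near 0 between the aged groups (-0.14).

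Of the receptors, Notch3 differed most from young mice, and least between the aged groups. Its level in the 5 young libraries was 41.4, 31.3, 33.1, 34.1 and 25.6 CPM. The aged IgG2a libraries had 10.9, 13.04, 14.1 and 10.2 CPM, and the aged aPD1ab libraries had 11.4, 12.3, 10.5 and 9.86 CPM. All 8 aged libraries lay below the lowest young library, and the 2 aged groups overlapped. Groups that did not overlap, with the aged group lower, were seen for 9.73% of all genes in the IgG2a comparison and for 10.6% in the aPD1ab comparison with young mice. Notch3 was 2.62-fold lower in aged IgG2a than in young mice (log2 fold change -1.39 ± 0.16 SE, adjusted p = 0.00248), and 2.99-fold lower in aged aPD1ab mice (-1.58 ± 0.14, adjusted p = 0.0017). Between the aged groups its log2 fold change was -0.14 ± 0.16 (adjusted p = 0.583), -0.20 ± 0.16 without aged IgG2a replicate 1, and 0.11 when counts were scaled to library totals. Notch3 kept its call in 17 of 17 alternative analyses of the IgG2a comparison. In the aPD1ab comparison with young mice it kept its call in 15 of 15. Among the 17 was the fit without aged IgG2a replicate 1 (-1.35 ± 0.16, adjusted p = 9.95e-05). A 2-fold limit on the change is not counted among these alternatives, here or below.

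Notch4, an endothelial receptor, was also lower in aged mice. It was at 48.0, 39.1, 33.5, 51.2 and 49.4 CPM in young, 23.9, 21.7, 32.6 and 34.3 CPM in aged IgG2a, and 33.3, 17.4, 21.0 and 21.1 CPM in aged aPD1ab libraries. Every aged aPD1ab library lay below the young range, whereas 1 of the 4 aged IgG2a libraries reached into it. The difference was 1.51-fold in aged IgG2a mice (log2 fold change -0.59 ± 0.18, adjusted p = 0.0469) and 1.89-fold in aged aPD1ab mice (-0.92 ± 0.20, adjusted p = 0.0104). The first of these was called in 9 of 17 alternative analyses and the second in 15 of 15. Neither was called with the 2-fold limit. Leaving out any 1 library other than aged IgG2a replicate 1 ended the first call, at an adjusted p of 0.053 to 0.134. Without aged IgG2a replicate 1 the first difference was -0.53 ± 0.18 (adjusted p = 0.0307). Between the aged groups the log2 fold change was -0.29 ± 0.23 (adjusted p = 0.415), -0.37 ± 0.24 without aged IgG2a replicate 1, and 0.020 with library totals.

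Notch2, the receptor with the highest level, was the 1 member whose aged groups lay on opposite sides of young mice once aged IgG2a replicate 1 was set aside. Young libraries had 113.5, 123.5, 86.3, 111.4 and 126.8 CPM. Aged IgG2a replicate 1 had 70.4 CPM, and replicates 2 to 4 had 143.5, 162.2 and 158.9 CPM. Aged aPD1ab libraries had 98.9, 62.1, 72.0 and 73.2 CPM. Replicate 1 thus lay below every young library, the other 3 aged IgG2a libraries lay above the other 10 libraries, and the aPD1ab group overlapped the young group through replicate 1. Without replicate 1, 19.4% of all genes had every aged IgG2a library above every young library, and 18.5% had every aPD1ab library below every aged IgG2a library. With all libraries the log2 fold change in aged IgG2a against young mice was 0.32 ± 0.24 (adjusted p = 0.35), with the opposite sign (-0.17) when counts were scaled to library totals, a scaling that moved the median of all genes by -0.38. Without replicate 1 it was 0.52 ± 0.12 (adjusted p = 0.00537), a 1.43-fold difference. Between aged aPD1ab and aged IgG2a mice it was -0.83 ± 0.28 (adjusted p = 0.123), and without replicate 1 it was -1.04 ± 0.16 (adjusted p = 0.00737), a 2.06-fold difference. Both calls without replicate 1 depend on leaving out a library that was picked from these same counts. That library had the lowest Notch2 level of its group. Against young mice, aged aPD1ab mice had 1.46-fold less Notch2 (-0.54 ± 0.15, adjusted p = 0.0306), a call made in 7 of 15 alternatives. Leaving out 1 library kept this call only for young replicate 3 and aged aPD1ab replicate 1, and for the other 7 libraries the adjusted p was 0.0542 to 0.0762.

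Notch1 was at 52.0 to 79.4 CPM in young libraries with a median of 64.3. It was at 60.7, 46.3, 61.5 and 52.7 CPM in aged IgG2a and at 58.6, 27.8, 21.9 and 42.8 CPM in aged aPD1ab libraries. Of the 4 aPD1ab libraries, 3 lay below every other library, and replicate 1 lay within the young range. The log2 fold change against young mice was -0.17 ± 0.13 in aged IgG2a mice (adjusted p = 0.394, and -0.22 ± 0.14 without replicate 1) and -0.76 ± 0.26 in aged aPD1ab mice (adjusted p = 0.0571), and neither passed the threshold. The second was called in 4 of 15 alternatives. Between the aged groups the log2 fold change was -0.56 ± 0.28 (adjusted p = 0.218), and without aged IgG2a replicate 1 it was -0.53 ± 0.31.

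**Figure D2:**
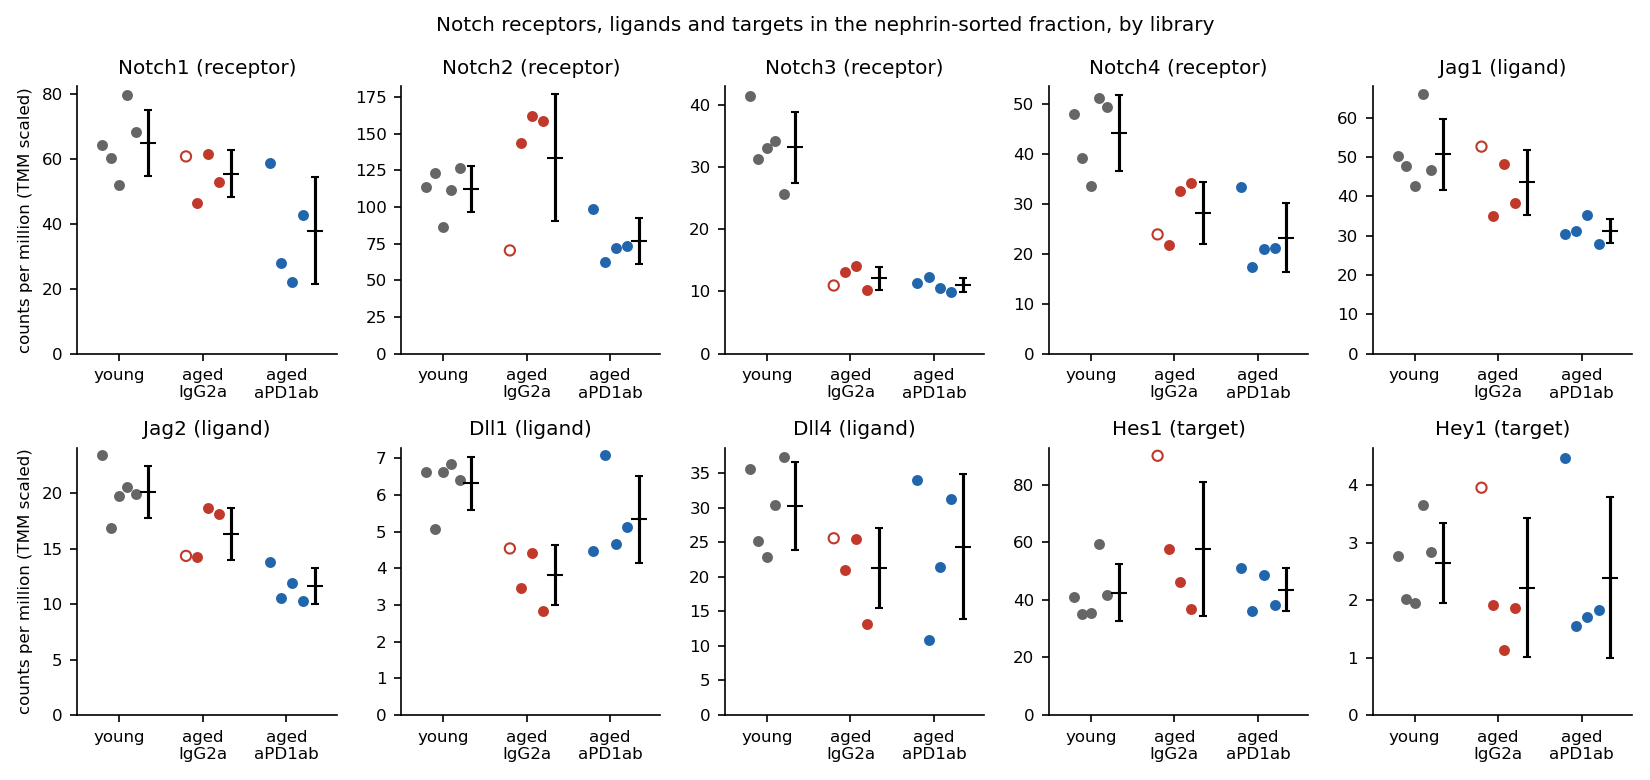
Level of each Notch gene in every library, in CPM after TMM scaling, with 5 young (grey), 4 aged IgG2a (red) and 4 aged aPD1ab (blue) libraries, and the mean ± SD of each group in black. The open red circle is aged IgG2a replicate 1. Notch3 is at 25.6 to 41.4 CPM in young and 9.86 to 14.1 CPM in aged libraries. The open circle departs from the other 3 aged IgG2a libraries for Notch2, Hes1 and Hey1.

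The 4 receptors can be set against each other per length, as TPM, in which a count is divided by the summed exon length of the gene and scaled to the library. Notch2 made up 39.0% to 46.9% of the summed receptor TPM in young libraries. It made up 43.2% in aged IgG2a replicate 1, 59.8% to 63.8% in replicates 2 to 4, and 48.7% to 55.0% in aged aPD1ab libraries. Notch3 made up 12.3% to 20.6% in young, 5.28% to 8.94% in aged IgG2a and 7.46% to 13.3% in aged aPD1ab libraries. The Notch3 share of the aged IgG2a group did not overlap the young range, and that of the aPD1ab group did, in 1 library. Notch4 made up 19.9% to 24%, 12.9% to 19.6% and 19% to 22% in the same order, and Notch1 17.3% to 21.1%, 15.5% to 28.2% and 12.7% to 22%.

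**Figure D3:**
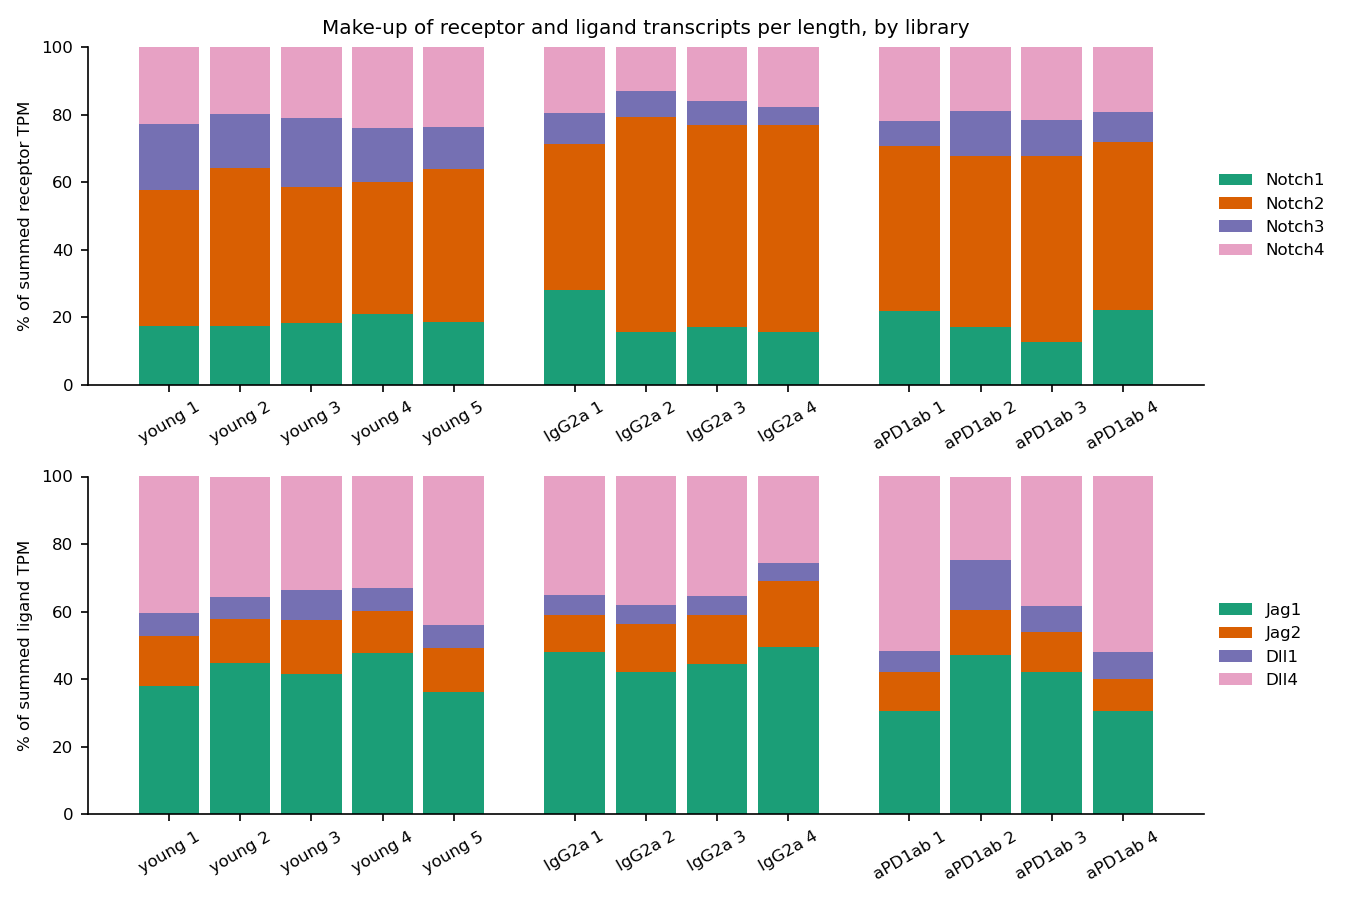
Share of each receptor in the summed receptor TPM (top) and of each ligand in the summed ligand TPM (bottom), 1 bar per library. Notch2 takes 59.8% to 63.8% of receptor transcripts in aged IgG2a replicates 2 to 4 and 39.0% to 46.9% in young libraries.

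Of the ligands, the Jagged genes were lower in aged aPD1ab mice. Jag1, a ligand of many epithelial and vascular cells, was at 50.4, 47.8, 42.6, 66.2 and 46.8 CPM in young and at 52.7, 35.1, 48.2 and 38.4 CPM in aged IgG2a libraries. The aged aPD1ab libraries had 30.6, 31.2, 35.3 and 27.9 CPM, all below the young range, and 1 of them overlapped the aged IgG2a range. Jag1 was 1.61-fold lower in aged aPD1ab than in young mice (log2 fold change -0.69 ± 0.13, adjusted p = 0.00727). Against aged IgG2a mice the log2 fold change was -0.49 ± 0.15 (adjusted p = 0.112) with all libraries and -0.40 ± 0.14 (adjusted p = 0.0605) without replicate 1. In aged IgG2a against young mice it was -0.16 ± 0.16 (adjusted p = 0.487), and -0.27 ± 0.15 (adjusted p = 0.164) without replicate 1.

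Jag2 was at 23.5, 16.8, 19.8, 20.6 and 19.9 CPM in young, 14.4, 14.2, 18.6 and 18.1 CPM in aged IgG2a, and 13.8, 10.6, 11.9 and 10.3 CPM in aged aPD1ab libraries. The aPD1ab libraries were the lowest 4 of the 13, below both other groups, and the young and aged IgG2a groups overlapped. Among all genes, 4.73% had every aPD1ab library below every aged IgG2a library. The log2 fold change was -0.78 ± 0.13 against young mice (1.72-fold, adjusted p = 0.00454). Against aged IgG2a mice it was -0.50 ± 0.16 (adjusted p = 0.114), and without replicate 1 it was -0.57 ± 0.15 (adjusted p = 0.0264). Jag1 and Jag2 were both called lower in aged aPD1ab than in young mice in 15 of 15 alternatives. Neither was called with the 2-fold limit, which is not among the 15.

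The Delta-like ligands behaved otherwise. Dll1, at 6.63, 5.06, 6.62, 6.84 and 6.41 CPM in young libraries, was at 4.54, 3.47, 4.41 and 2.83 CPM in aged IgG2a and at 4.48, 7.08, 4.65 and 5.11 CPM in aged aPD1ab libraries. All aged IgG2a libraries lay below the young range, and the aPD1ab libraries overlapped both other groups. Dll1 was 1.58-fold lower in aged IgG2a than in young mice (log2 fold change -0.66 ± 0.18, adjusted p = 0.0327), a call made in 10 of 17 alternatives and also without replicate 1 (-0.76 ± 0.19, adjusted p = 0.0071). It was kept without young replicate 2 as well, and leaving out any of the other 7 libraries gave an adjusted p of 0.0614 to 0.0982. Between aged aPD1ab and aged IgG2a mice it was 0.47 ± 0.25 (adjusted p = 0.235; 0.55 ± 0.27 without replicate 1, adjusted p = 0.144), and against young mice -0.23 ± 0.18 (adjusted p = 0.368). The counts behind these levels were 41 to 204 per library.

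Dll4, the endothelial tip cell ligand, was at 22.8 to 37.4 CPM in young libraries with a median of 30.4. It was at 25.6, 21.0, 25.4 and 13.2 CPM in aged IgG2a and at 34, 10.8, 21.4 and 31.3 CPM in aged aPD1ab libraries. The groups overlapped, and the aPD1ab libraries spread over a 3-fold range. The log2 fold changes were -0.44 ± 0.21 in aged IgG2a against young (adjusted p = 0.158; -0.54 ± 0.23 without replicate 1, adjusted p = 0.0782), 0.18 ± 0.34 in aged aPD1ab against aged IgG2a (adjusted p = 0.763; 0.26 ± 0.38 without replicate 1) and -0.29 ± 0.29 in aged aPD1ab against young mice (adjusted p = 0.495).

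Neither target passed the test in any comparison. Hes1, a transcriptional repressor and direct Notch target, was at 41.0, 34.9, 35.3, 59.4 and 41.7 CPM in young, 90.0, 57.7, 46.2 and 36.8 CPM in aged IgG2a, and 51.0, 36.1, 48.5 and 38.4 CPM in aged aPD1ab libraries. The 3 groups overlapped, and the highest value belonged to aged IgG2a replicate 1. Its log2 fold change in aged IgG2a against young mice was 0.50 ± 0.25 (adjusted p = 0.172), and 0.20 ± 0.20 (adjusted p = 0.418) without that library. In aged aPD1ab against young mice it was 0.05 ± 0.17 (adjusted p = 0.871), with the opposite sign (-0.088) when scaled to library totals.

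Hey1, a repressor of the related HEY family, was low, with 21 to 135 counts per library. It was at 1.94 to 3.65 CPM in young libraries, at 3.96, 1.92, 1.13 and 1.87 CPM in aged IgG2a and at 4.48, 1.55, 1.70 and 1.83 CPM in aged aPD1ab libraries. In each aged group replicate 1 was above the young range and the other 3 were below it. The log2 fold changes lay between -0.18 and 0.08, with standard errors of 0.34 to 0.47, and the lowest adjusted p was 0.738. Without aged IgG2a replicate 1 Hey1 was at -0.63 ± 0.29 in aged IgG2a against young mice (adjusted p = 0.101) and at 0.51 ± 0.45 in aged aPD1ab against aged IgG2a mice (adjusted p = 0.412).

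The order of the levels per length was similar in the 3 groups. In young mice the mean was 53.2 ± 16.4 TPM (SD, n = 5) for Hes1, 26.5 ± 5.33 for Notch2, 22.3 ± 5.82 for Jag1, 19.8 ± 4.17 for Dll4, 14.0 ± 3.04 for Notch4, 11.6 ± 2.65 for Notch1, 10.4 (7.63 to 12.4) for Notch3, 7.29 ± 0.87 for Jag2, 3.78 ± 0.46 for Dll1 and 2.07 ± 0.67 for Hey1. Neighbors that did not keep their order in every young library were Notch2 and Jag1 (4 of 5 libraries), Jag1 and Dll4 (3 of 5) and Notch1 and Notch3 (3 of 5). Notch3 ranked below Jag2 in both aged groups, at 2.44 ± 0.70 TPM (n = 4) in aged IgG2a and 2.97 ± 0.59 TPM (n = 4) in aged aPD1ab mice. TPM are not compared between groups here, since the median gene moved by -0.64 (log2) on this scale between aged IgG2a and young libraries and by -0.02 in CPM.

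The marker genes of the cells known for these receptors moved as well. In bulk libraries, fewer cells of a type and less RNA per cell cannot be told apart. Summed over 8 mesangial, pericyte and smooth muscle markers, of which none was at 0 in any library, the level was 329.8 to 466.8 CPM in young, 164.7 to 230.3 CPM in aged IgG2a and 182.9 to 206.9 CPM in aged aPD1ab libraries. Of these 8 genes, 5 were called lower in each aged group than in young mice, beside 8.38% (IgG2a) and 9.97% (aPD1ab) of all genes. The fit of all 3 groups called 5 and 4, the 4 without Pdgfrb. Pdgfrb, the PDGF receptor of mural cells, was among the 5 in both comparisons, at 49.5 ± 4.91 CPM in young (n = 5), 20.9 ± 8.07 in aged IgG2a (n = 4) and 27.4 ± 12.2 in aged aPD1ab mice (n = 4). As a percentage of that sum, Notch3 was 7.31 to 9.09 in young, 5.76 to 6.21 in aged IgG2a and 4.92 to 6.72 in aged aPD1ab libraries. This ratio, chosen after the values were seen, did not overlap between young and aged libraries. The ratio is a description, and the part of mural cell content in the Notch3 difference was not tested.

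For the endothelial genes the sum over 8 markers, none at 0, was 722.2 to 1071 CPM in young, 561.0 to 673.7 CPM in aged IgG2a and 352.9 to 922.9 CPM in aged aPD1ab libraries. Of the 8 markers, 6 were called lower in aged IgG2a and 2 in aged aPD1ab than in young mice, beside 8.38% and 9.97% of all genes. These counts depended on the fit. The fit of all 3 groups called 1 lower in aged IgG2a and 3 in aged aPD1ab mice. In that fit 14% and 17.8% of all genes were called in either direction. Set against this sum, Notch4 was 3.57% to 5.42% in young, 3.54% to 5.82% in aged IgG2a and 3.07% to 4.93% in aged aPD1ab libraries, which overlapped. The same ratio was 1.92% to 2.44%, 2.13% to 3.32% and 1.49% to 3% for Jag2, and 2.43% to 3.71%, 2.16% to 4.53% and 3.07% to 4.55% for Dll4, and these overlapped too. For Jag1 it was 4.55% to 6.62%, 6.1% to 8.59% and 3.31% to 8.84%, again with overlap. For Notch1 it was 5.55% to 8.34%, 8.03% to 11% and 4.64% to 7.88%, and here the 2 aged groups did not overlap. These ratios too were chosen after the values were seen and are a description. What part endothelial content had in the lower Notch4 was not tested.

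Notch2 was highest in the libraries with the highest sum over the macrophage list. The genes of this list, named here in full, were Ptprc, Adgre1, Csf1r, C1qa, C1qb, Cd68 and Itgam. Ptprc encodes CD45, which is not limited to macrophages. The sum over these 7 genes, none at 0, was 1413 to 2380 CPM in young libraries, 1818 CPM in aged IgG2a replicate 1, 4557 to 5722 CPM in replicates 2 to 4, and 1382 to 3160 CPM in aged aPD1ab libraries. The 3 libraries with the most Notch2 were the 3 with the highest macrophage sum. The same 3 also had the highest sum of 6 T cell markers (38.4 to 49.2 CPM, at most 23.9 in the other 10) and the lowest proximal tubule sum (730.3 to 1092 CPM, at least 3353 in the other 10). In aged aPD1ab against young mice none of the 7 macrophage markers was called (median log2 fold change 0.08), beside 22.4% of all genes in either direction, whereas Notch2 was lower. Without replicate 1, all 7 markers were called higher in aged IgG2a than in young mice, beside 22.1% of all genes. All 7 were then called lower in aged aPD1ab than in aged IgG2a mice, beside 13.2% of all genes. Among them was Adgre1, which encodes F4/80 and was at 402.8 ± 51.3 CPM (n = 3) in those aged IgG2a, 192.4 ± 40.2 CPM (n = 5) in young and 168.1 ± 59.1 CPM (n = 4) in aged aPD1ab libraries. As a percentage of the macrophage sum, Notch2 was 5.19 to 7.88 in young, 2.51 to 3.87 in aged IgG2a and 2.28 to 4.50 in aged aPD1ab libraries, so that all aged libraries lay below the young range. Like that of Notch3, this ratio was chosen after the values were seen, and it is a description. The part of macrophages, T cells or tubule cells in the Notch2 differences was not tested.

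**Figure D4:**
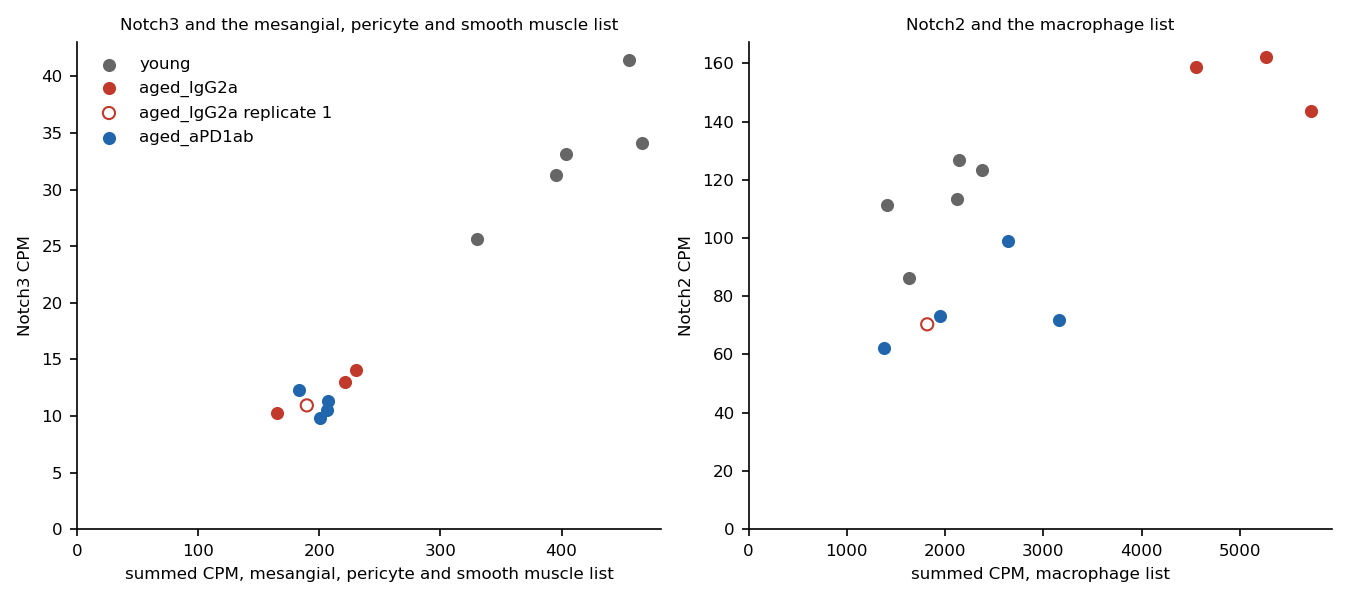
Left, Notch3 against the summed level of 8 mesangial, pericyte and smooth muscle markers; right, Notch2 against the summed level of 7 macrophage markers, both in CPM, 1 point per library. The aged libraries form 1 cloud at the lower left for Notch3 (164.7 to 230.3 CPM on the x axis), and aged IgG2a replicates 2 to 4 stand at the upper right for Notch2 (4557 to 5722 CPM).

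Of 69 further genes of the pathway, 61 had enough counts for the test of aged IgG2a against young mice, and 9 were higher and 1 lower (14.8% and 1.64%), beside 9.05% and 8.38% of all genes. Among the genes of receptor cleavage, Psen2 (log2 fold change 0.60 ± 0.14, adjusted p = 0.024) and Ncstn (0.44 ± 0.12, adjusted p = 0.038), both subunits of γ-secretase, and the protease gene Adam17 (0.59 ± 0.17, adjusted p = 0.0447) were higher. Furin, which cuts the receptor during its maturation, was lower (-0.36 ± 0.11, adjusted p = 0.0447). The glycosyltransferases Lfng (1.00 ± 0.27) and Pofut1 (0.42 ± 0.12), which modify the receptor, were higher, as were the E3 ligase genes Neurl3 (1.12 ± 0.32), Dtx4 (0.86 ± 0.26) and Dtx2 (0.57 ± 0.17) and the target Myc (0.99 ± 0.25). Pofut1 turned to -0.033 when scaled to library totals. None of the 9 genes of the nuclear complex was called. Without replicate 1 the list had 20 genes higher and 6 lower (32.8% and 9.84%, beside 22.1% and 23.5% of all genes), Rbpj, named after its value was seen, among the higher (0.52 ± 0.12, adjusted p = 0.00495). Leaving out any other library left 0 to 2 genes called, beside 3.4% to 9.54% of all genes.

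Between aged aPD1ab and aged IgG2a mice, none of 62 genes of the list tested was called. The 4 with the lowest p were Cbl (log2 fold change -1.37 ± 0.28), Rfng (0.67 ± 0.15), Adam10 (-0.79 ± 0.19) and Ep300 (-0.67 ± 0.18), each with an adjusted p of 0.109. Without replicate 1, 15 were lower and 4 higher (24.2% and 6.45%, beside 13.2% and 17.1% of all genes). Those 15 included Adam10 (-0.95, adjusted p = 0.0064), Adam17, the γ-secretase subunit Ncstn, the co-activators Ep300 and Crebbp, and Rbpj (-1.03 ± 0.29, adjusted p = 0.0316), of which Adam17, Ncstn, Crebbp and Rbpj are named after their values were seen.

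In aged aPD1ab against young mice, 8 of 62 were higher and 12 lower (12.9% and 19.4%), beside 12.4% and 9.97% of all genes. The lower ones included Cbl, an E3 ligase in receptor turnover (48.4 ± 7.60 CPM in young and 13.9 ± 4.72 in aged aPD1ab mice; log2 fold change -1.78 ± 0.22, adjusted p = 0.00288), Adam10, the protease that makes the ligand-induced cut (-0.57 ± 0.08, adjusted p = 0.00387), the E3 ligase Itch (-0.49 ± 0.10), the corepressor Ctbp2 (-0.43 ± 0.10) and the acetyltransferase Ep300 (-0.58 ± 0.16). The higher ones included the γ-secretase subunits Psen2 (0.44 ± 0.12) and Psenen (0.49 ± 0.12), the corepressor Ctbp1 (0.32 ± 0.09), the glycosyltransferase Rfng (0.47 ± 0.13), Hes6 (0.64 ± 0.13), Sox9 (1.44 ± 0.31) and Myc (0.91 ± 0.22). Within γ-secretase the subunits did not move together, since Aph1b was lower (-0.59 ± 0.17, adjusted p = 0.0292). The HEY genes Hey2 (-1.15 ± 0.32, adjusted p = 0.0279) and Heyl (-0.81 ± 0.25, adjusted p = 0.0423) were lower too, and they and Aph1b are named after their values were seen. Hey2 was at 1.51 to 3.52 CPM in young, 0.83 to 2.12 CPM in aged IgG2a and 0.84 to 1.59 CPM in aged aPD1ab libraries. Leaving out 1 library kept the call of Hey2 in 4 of 9 fits, of Heyl in 2 of 9 and of Aph1b in 6 of 9. The calls of Psen2 and Ctbp1 were each kept in 4 of 9. DESeq2 called both HEY genes, whereas voom and the fit of all 3 groups called Hey2 but not Heyl.

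**Figure D5:**
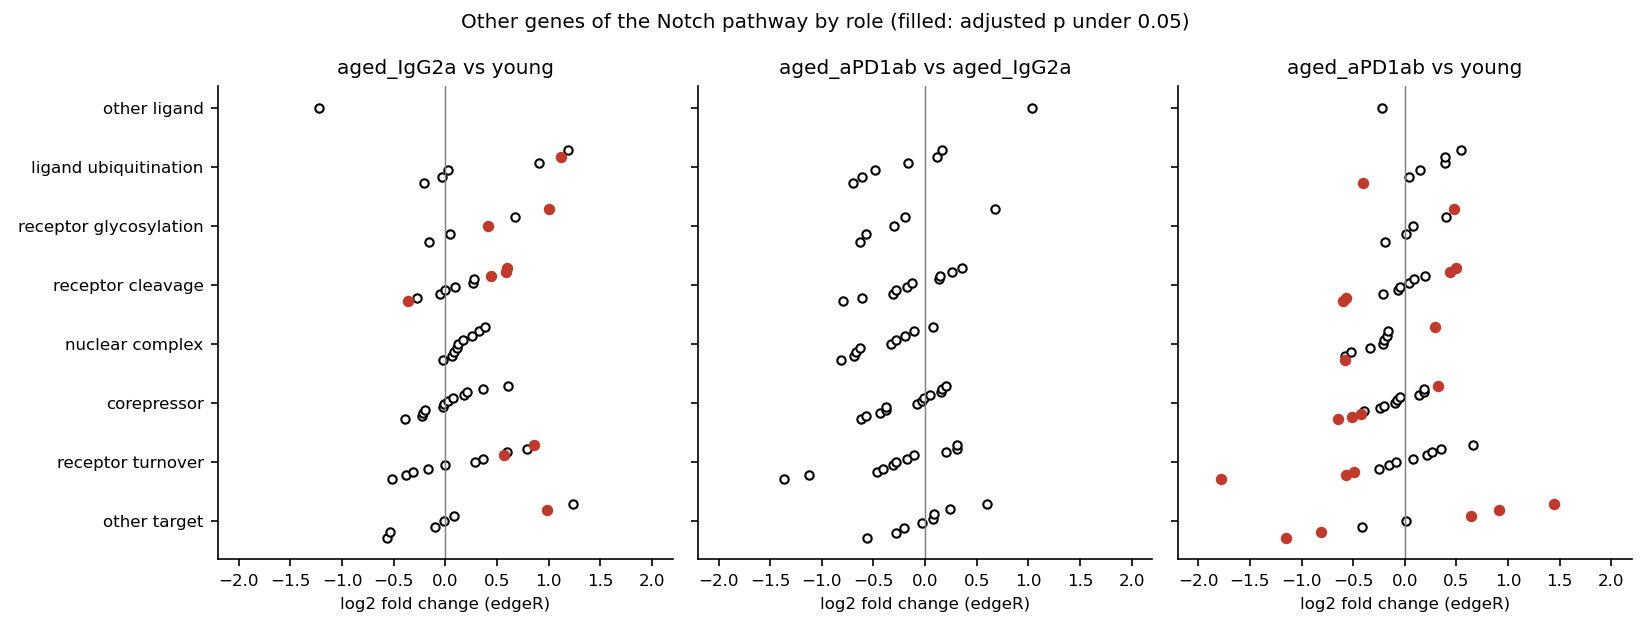
Log2 fold change (edgeR, all libraries) of the tested genes among 69 further Notch pathway genes, in rows by role and in 1 panel per comparison. Filled red points have an adjusted p under 0.05: 9 higher and 1 lower in aged IgG2a against young, none between the aged groups, and 8 higher and 12 lower in aged aPD1ab against young mice.

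The promoters of 8 of the 10 genes had an entry in the RefSeq table (GRCm38.p6, 250 bases before to 50 after the start), and Hes1 and Hey1 had none. The motifs searched were 3, on both strands: the RBPJ core GTGGGAA, the N box CACNAG and the class C site CACGNG, the last 2 being known binding sites of HES and HEY repressors, and CACGAG belongs to both. The RBPJ core stood in 6.38%, the N box in 42.5% and the class C site in 27.5% of all 32851 promoters. None of the 9 windows of the members held the RBPJ core. The 250 bases before the start are shown for Notch3 and Notch4, the receptors with the largest differences from young mice. They are also shown for Hey2, which had the RBPJ core and was lower in aged aPD1ab mice, and was picked after these values were seen. Of the other genes searched beyond the members, Hes5 and Hes7 held the RBPJ core too, and Hes6 and Nrarp did not. What part the motif had in any difference was not tested. Capitals mark the N box and class C matches in Notch3 and the RBPJ core in Hey2.
Notch3, chr17:32166891-32167140, minus strand: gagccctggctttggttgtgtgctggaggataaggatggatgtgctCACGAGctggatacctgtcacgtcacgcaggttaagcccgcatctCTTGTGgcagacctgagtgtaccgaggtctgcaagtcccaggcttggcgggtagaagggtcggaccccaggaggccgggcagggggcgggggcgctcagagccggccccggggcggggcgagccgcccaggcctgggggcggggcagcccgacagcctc
Notch4, chr17:34564045-34564294, plus strand: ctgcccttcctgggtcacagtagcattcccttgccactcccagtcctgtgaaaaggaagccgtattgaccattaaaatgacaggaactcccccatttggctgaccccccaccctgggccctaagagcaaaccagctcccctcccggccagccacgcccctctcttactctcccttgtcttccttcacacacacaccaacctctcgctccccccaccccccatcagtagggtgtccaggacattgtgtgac
Hey2, chr10:30842784-30843033, minus strand: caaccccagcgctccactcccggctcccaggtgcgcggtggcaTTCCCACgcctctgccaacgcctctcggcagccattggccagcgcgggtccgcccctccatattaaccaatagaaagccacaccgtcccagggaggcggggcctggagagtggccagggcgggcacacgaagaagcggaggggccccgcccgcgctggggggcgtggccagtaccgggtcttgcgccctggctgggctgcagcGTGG
In Notch3 the matches begin 204 and 159 bases before the start. Notch4 has no match to the 3 motifs. In Hey2 the matches begin 207 and 4 bases before the start, on opposite strands, and the second runs past the printed end.

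On GRCm38 (GENCODE M21), Notch3 (ENSMUSG00000038146) lies on chromosome 17 at 32120820 to 32166852 on the minus strand, and Notch4 (ENSMUSG00000015468) on the same chromosome at 34564268 to 34588503 on the plus strand. Notch2 (ENSMUSG00000027878) lies on chromosome 3 at 98013527 to 98150361. All 10 are protein coding. Annotated genes overlap the span of 7 of the 10, Jag1, Hes1 and Hey1 being free of them. Since the strand setting of the counting is not given in the sources used here, reads from such partners cannot be told apart.

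Across the 13 libraries, the genes most like Notch3 by Pearson's r of log2 CPM among 13171 genes were Meox1 (r = 0.943), Agps (0.943) and Nrip2 (0.936). Agps was at 129.4 CPM on average in young, 66.9 in aged IgG2a and 59.1 in aged aPD1ab libraries. The genes most like Notch2 were Akap13 (0.971), Heatr5a (0.967) and Tet3 (0.961), those most like Notch1 were Helz (0.97), Gse1 (0.97) and Prdm2 (0.967), and those most like Notch4 were Fryl (0.949), Sema7a (0.936) and Golim4 (0.93). The points of each correlation share their library's scaling and composition, and the values are a description.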

How the data were processed

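The deposited table held raw counts per Ensembl gene, which the authors made with HISAT2 and featureCounts on mm10 (GRCm38), per the submitters' processing notes; libraries were made with a TruSeq RNA kit. The 13 columns used were tied to their groups through the sample numbers shown with the study's principal component plot, and 2 columns were not used. Replicate numbers follow column order and pair nothing. Whether columns are separate mice rests on the study's statement of individual mice. The 10 members and the gene lists were chosen with earlier results of these data known.

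Names and lengths came from GENCODE M21. Genes passing filterByExpr were tested pair by pair with edgeR 4.0.16 (TMM, robust quasi-likelihood, Benjamini-Hochberg over all genes, R 4.3.3), after the script was tested on simulated data. The standard errors given with edgeR log2 fold changes were derived, as the absolute log2 fold change over the square root of the test's F statistic. CPM are TMM scaled, TPM use summed exon length, and the log2 CPM for likeness has a prior count of 2. At these depths a count of 3 equals under 0.2 CPM. Alternatives were RLE factors, library totals, DESeq2 1.42.0, limma 3.58.1 voom, no filter, 1 fit of the 3 groups, a 2-fold limit, and leaving out each library. The 2-fold limit is not in the counts of alternatives given per gene. Counts out of 17 include DESeq2 and voom without aged IgG2a replicate 1. From the wider list, called genes were named (at most 12 by lowest p, or the 4 lowest where under 3 passed), and from each marker list the first 2 genes could be named; exceptions are stated.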

Additional observations from a re-analysis of the deposited data

Results flagged for a closer look

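In 3 of 30 groups of libraries tested (10 genes by 3 groups), 1 library lay apart by Dixon's test, which flags about 1 in 20 groups by chance. Dll1 was at 5.06 CPM in young replicate 2, and the other 4 young libraries were at 6.41 to 6.84 CPM. Hes1 was at 59.4 CPM in young replicate 4, and the others were at 34.9 to 41.7 CPM. Hey1 was at 4.48 CPM in aged aPD1ab replicate 1, and the others were at 1.55 to 1.83 CPM.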

How the results depend on the processing

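Notch3 was called lower in both comparisons with young mice under every alternative run, and so were Notch4, Jag1 and Jag2 in aged aPD1ab against young mice except with the 2-fold limit. For aged IgG2a against young mice, 1 member was called with the 2-fold limit and 6 with library totals, and leaving out 1 library gave 1 to 4. The share of all genes called was 8.48% with the 2-fold limit, 23.3% with library totals and 3.4% to 45.6% when 1 library was left out. Added after seeing the data, DESeq2 and voom without aged IgG2a replicate 1 called 5 and 4 members (48.1% and 46.4% of all genes). For aged aPD1ab against aged IgG2a mice, DESeq2 and voom called 3 members each and the fit of all 3 groups 2 (15.3%, 39.8% and 17.5% of all genes). Leaving out 1 library gave 0 to 2 (0% to 30.4%), and both added analyses gave 3 (38% and 39.7%). For aged aPD1ab against young mice the 2-fold limit left 1 member (4.79% of all genes), and leaving out 1 library gave 4 to 6 (14.6% to 23.8%). Of the wider list in aged IgG2a against young mice, 2 genes were called with the 2-fold limit, 17 with DESeq2, 27 with voom and 2 without the count filter, beside 8.48%, 27.9%, 46.7% and 7.27% of all genes. Neither 17 nor 27 of 61 exceeded the share of all genes. Leaving out 1 library gave 0 to 26, and the added analyses gave 27 and 26. Between the aged groups DESeq2 called 8, voom 29 and the fit of all 3 groups 8, at the shares of all genes given above. Leaving out 1 library gave 0 to 19, and the added analyses gave 23 and 29. In aged aPD1ab against young mice the 2-fold limit left 3 of the list, and leaving out 1 library gave 8 to 17. Among the edgeR fits without 1 library, the highest counts of the list in the 2 comparisons with aged IgG2a mice, 26 and 19, came without its replicate 1.

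Signs turned for values that were not called, except Pofut1. With library totals, the log2 fold change was -0.17 for Notch2 and -0.033 for Pofut1 in aged IgG2a against young, 0.11 for Notch3 and 0.020 for Notch4 between the aged groups, and -0.088 for Hes1 in aged aPD1ab against young mice. Library totals moved the median of all genes by -0.38, 0.25 and -0.10 in the 3 comparisons. Leaving out 1 library moved Hey1 from -0.63 to 0.034 in aged IgG2a against young, from -0.40 to 0.51 between the aged groups and from -0.63 to 0.029 in aged aPD1ab against young mice. It moved Dll4 from -0.017 to 0.42 between the aged groups, and Hes1 from -0.043 to 0.19 in aged aPD1ab against young mice. The cause of these changes was not tested. No paired analysis was possible because the columns carry no replicate numbers shared between groups. With 4 or 5 libraries a group, the low counts of Hey1 and Dll1 limit what can be seen for them.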
